A study of Mus musculus with 27 samples.

Results

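The translation initiation factors and their repressors were examined as 10 genes, taken by symbol from the 35275 genes of the deposited expression tables. They are *Eif4e*, *Eif4e2*, *Eif4ebp1*, *Eif4ebp2*, *Eif4a1*, *Eif4g1*, *Eif5a*, *Eif2s1*, *Eif3a* and *Pdcd4*. The genes were chosen by name with earlier results of these libraries known, among them the genotype differences of *Eif4e2* and *Eif5a* in naive cells and of *Eif4ebp1* in day 5 cytotoxic T lymphocytes (CTLs). Those 3 sets of genotype values are therefore described with no test. All 10 genes passed the filter on low values at every stage.

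Most mRNAs are translated after the cap at their 5′ end is bound by the eIF4F complex, in which eIF4E (*Eif4e*) holds the cap, eIF4A (*Eif4a1*) is the RNA helicase and eIF4G (*Eif4g1*) is the scaffold. eIF3, whose largest subunit is encoded by *Eif3a*, joins this complex to the small ribosomal subunit, and eIF2, whose alpha subunit is encoded by *Eif2s1*, brings the initiator tRNA. The 4E-binding proteins 4E-BP1 and 4E-BP2 (*Eif4ebp1*, *Eif4ebp2*) occupy eIF4E in place of eIF4G until the kinase mTORC1 phosphorylates them. Pdcd4 binds and inhibits the helicase eIF4A, and 4EHP (*Eif4e2*) is a cap-binding relative of eIF4E that does not bind eIF4G. Naive T cells make little protein, and engagement of their antigen receptor raises protein synthesis within hours.

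RNA was sequenced from P14+ CD8 T cells, whose transgenic receptor recognizes the gp33 peptide of lymphocytic choriomeningitis virus, on a *Rag2*-/- background. Cells came from wild type (WT) mice, from lin28Tg mice, which carry a Lin28b transgene whose protein blocks the maturation of let-7 microRNAs, and from let-7Tg mice, which carry a doxycycline-inducible let-7g transgene in the *Col1a1* locus. Mice of both sexes aged 6 to 10 weeks were used, and experimental and control mice were given 2 mg/mL doxycycline in drinking water for 4 days. Each genotype was sampled as naive cells, as cells activated for 12 h with anti-CD3 (2 µg/mL) and anti-CD28 (5 µg/mL), and as day 5 CTLs. CTLs were grown with irradiated splenocytes, anti-CD3 (2 µg/mL) and, from 48 h, IL-2 (100 U/mL). The cultures of both kinds held 2 µg/mL doxycycline in all 3 genotypes. There were 3 libraries in each of the 9 groups. The promoter that drives the Lin28b transgene is not given in the sources used here, and mature let-7 was not measured. The study calls the replicates biological, but nothing in the labels says whether they were separate mice or cultures, so p-values measure only the spread between these libraries.

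The libraries held 13862679 to 23590836 reads assigned to genes. *Lin28b* was at 9.94 to 67.9 FPKM (fragments per kilobase and library size) in the 9 lin28Tg libraries and at most 0.0590 FPKM in the other 18. *Col1a1* was at 9.06 to 62.8 FPKM in the let-7Tg libraries and at most 4.93 FPKM elsewhere. The summed level of 6 CD8 T cell markers was lower in lin28Tg libraries at each stage, at 3320 to 3639 FPKM in naive lin28Tg against 4186 to 4824 in the other naive libraries, at 1522 to 1842 against 1890.0 to 2440.4 at 12 h and at 1555 to 1836 against 1898 to 2204 in CTLs. The single CD8 T cell markers did not all follow their sum. In naive cells *Trac* was at 763 to 793 FPKM in lin28Tg against 1402 to 1704 in WT, and *Cd3e* at 245 to 281 against 330 to 359. *Cd8a* (452 to 518 against 509 to 525) and *Cd3d* (215 to 254 against 212 to 375) overlapped there. In CTLs *Cd8a* and *Cd8b1* were lower than in WT, while *Lck* was at 505 to 553 in lin28Tg, 511 to 546 in WT and 472 to 504 FPKM in let-7Tg. Markers of other blood lineages differed between genotypes in naive cells. The sum of 6 myeloid markers was 139.9 to 689 FPKM in naive lin28Tg, 31.8 to 52.4 in WT and 21.7 to 52.3 in let-7Tg libraries. No marker of this list was at 0 throughout a naive group. The sum of 5 erythroid markers was 494 to 1994, 153 to 292 and 1.88 to 38.6 FPKM in the same order. For 3 NK markers it was 67.6 to 100.2, 21.4 to 46.4 and 15.4 to 28.9 FPKM, and for 5 B cell markers 29.0 to 33.2, 18.8 to 21.5 and 14.3 to 21.2 FPKM. At 12 h the erythroid sum was still 83.3 to 693 FPKM in lin28Tg, 26.1 to 103 in WT and 0.774 to 4.34 FPKM in let-7Tg libraries. The part of these cells in the genotype differences was not tested. *Eif4a1*, *Eif4g1* and *Eif3a* overlap small nucleolar RNA genes on the same strand, and whether counting used strand is not given in the sources used here.

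**Figure D1:**
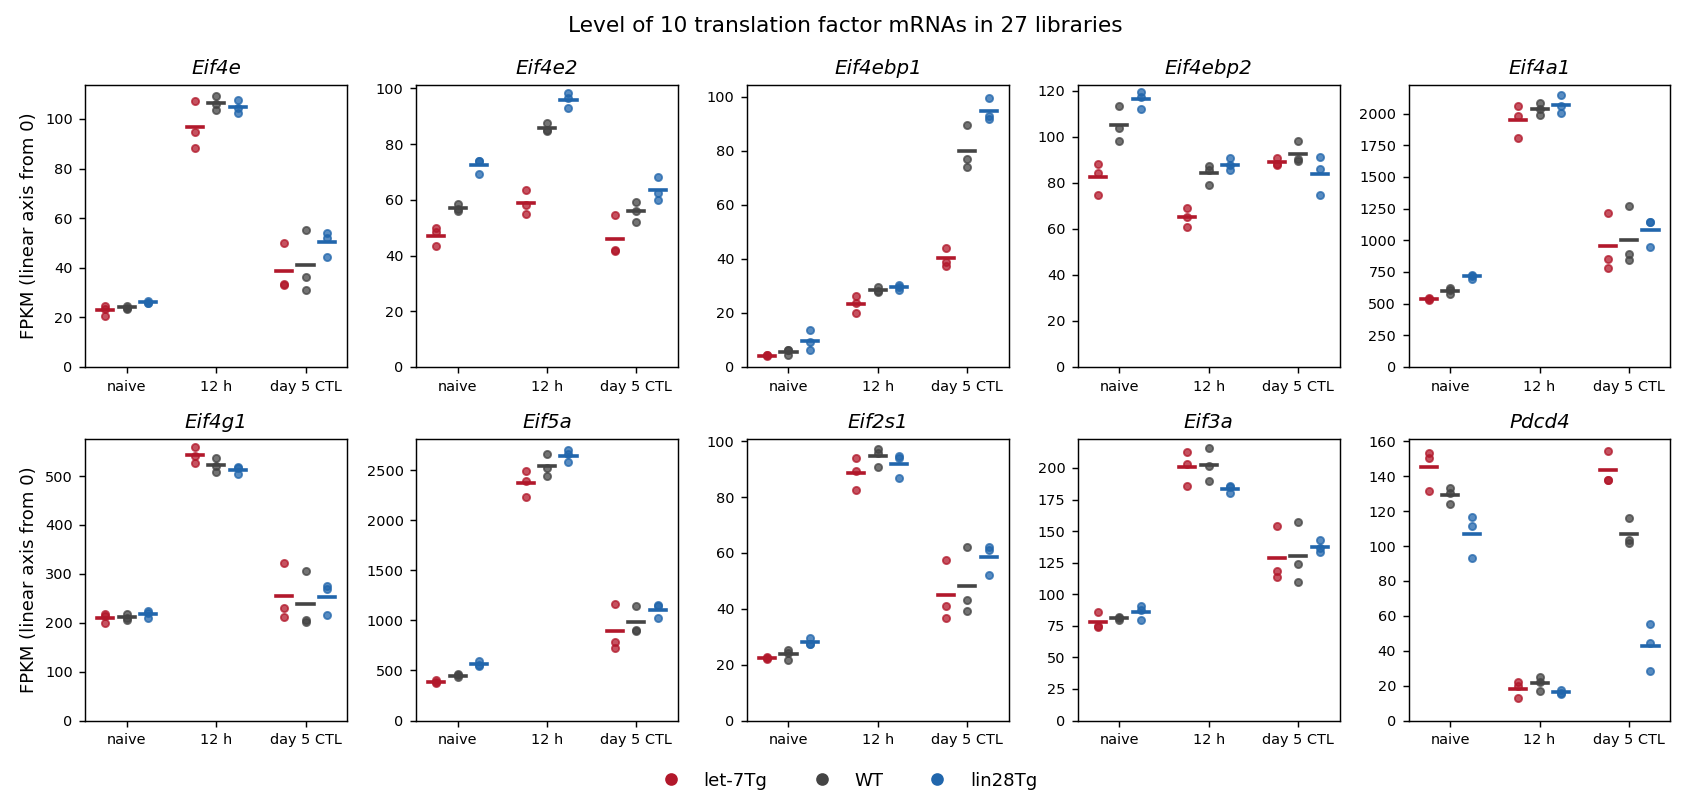
Levels of the 10 genes in FPKM (linear axes from 0, a scale for each gene) in naive cells, cells activated for 12 h and day 5 CTLs. Points are the 3 libraries of a group, bars their mean and colours the genotypes, and 8 genes rise at 12 h while *Pdcd4* falls from 124 to 134 FPKM in naive WT cells to 17.1 to 24.9 FPKM.

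The first question was how these genes change as a naive CD8 T cell is activated and becomes a CTL. FPKM are set per gene length, and they are shares of a library that give no amount per cell. For some genes the length recovered from these values was shorter than the longest annotated 3′ UTR alone. *Eif4ebp2* had 1604 against 5306 bases, *Eif4e* 2882 against 4192, *Eif4e2* 1991 against 2676 and *Eif4ebp1* 981 against 1563. Levels and ratios between genes therefore depend on the lengths used, while changes of a gene between groups do not. In bulk samples fewer cells of a type and less RNA per cell cannot be told apart, and stage cannot be told apart from culture. CTLs were also lysed in larger numbers than the minimum set for naive and activated cells. In naive WT cells the helicase *Eif4a1* was highest (603 ± 25.0 FPKM, mean ± SD, n = 3 here and below), followed by *Eif5a* (449 ± 15.8), *Eif4g1* (211 ± 6.72), *Pdcd4* (129 ± 4.82), *Eif4ebp2* (105 ± 7.76), *Eif3a* (80.9 ± 1.12) and *Eif4e2* (57.1 ± 1.23). The cap-binding factor *Eif4e* was at 24.0 ± 0.560 FPKM and *Eif2s1* at 23.7 ± 1.85 FPKM, with overlapping libraries, and *Eif4ebp1* was lowest at 4.46 to 6.21 FPKM. At the lengths used, naive WT cells thus held more mRNA of the inhibitors *Pdcd4* and *Eif4ebp2* than of *Eif4e*.

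At 12 h, 8 of the 10 genes were higher than in naive cells in every genotype, *Pdcd4* was lower and *Eif4ebp2* did not pass the test. Tests used limma on log2 of scaled FPKM plus 0.5, with Benjamini-Hochberg adjustment over 14453 genes and an adjusted p under 0.05 as the threshold. Of all tested genes, 34.6% were higher and 36.4% lower at 12 h in WT, 35.9% and 37.6% in lin28Tg, and 34.4% and 34.9% in let-7Tg cells. The median log2 difference of the 10 genes was 1.75 in WT cells, against -0.05 over all tested genes.

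Within the eIF4F complex the cap-binding subunit had the largest fold. *Eif4e* (chromosome 3, 138526179 to 138559696, GRCm38) was at 23.5, 23.9 and 24.6 FPKM in naive WT cells and at 109, 104 and 106 FPKM at 12 h. That is 5.04-fold (95% interval 3.93 to 6.47, adjusted p = 5.5e-11, limma). *Eif4a1* (chromosome 11, 69666936 to 69672423) went from 577, 627 and 604 FPKM to 2083, 1992 and 2037 FPKM, a 3.91-fold rise (interval 3.12 to 4.91, adjusted p = 1.9e-10, limma). *Eif4g1* (chromosome 16, 20668313 to 20692884) went from 211, 205 and 218 FPKM to 520.0, 537 and 509 FPKM, 2.86-fold (interval 2.30 to 3.55, adjusted p = 7.4e-09, limma). The intervals of *Eif4e* and *Eif4g1* do not overlap, though the difference between genes was not tested. The lin28Tg folds were 4.78, 3.51 and 2.86 and the let-7Tg folds 4.88, 4.26 and 3.03, in the same order of genes.

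*Eif4e2* (chromosome 1, 87213914 to 87240488) rose least of the 8 genes. It was at 56.1, 56.7 and 58.5 FPKM in naive WT cells and at 84.5, 87.6 and 85.0 FPKM at 12 h, 1.73-fold (interval 1.49 to 2.01, adjusted p = 3.8e-07, limma). Its fold was 1.60 in lin28Tg and 1.46 in let-7Tg cells. The ratio of *Eif4e2* to *Eif4e* mRNA within a library went from 2.38 ± 0.0101 in naive WT cells to 0.807 ± 0.0363 at 12 h and 1.44 ± 0.364 in CTLs. At the gene lengths used for FPKM, *Eif4e2* was thus the higher of the pair in naive cells and *Eif4e* at 12 h.

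The factors outside eIF4F rose as well. *Eif5a* (chromosome 11, 69916714 to 69921958), whose protein carries the modified lysine hypusine and helps the ribosome past difficult peptide bonds, had the largest fold of the 10 genes. It was at 462, 454 and 431 FPKM in naive WT cells and at 2521, 2438 and 2663 FPKM at 12 h, 6.54-fold (interval 5.32 to 8.04, adjusted p = 2.2e-13, limma). At 12 h it was the highest of the 10 genes, above *Eif4a1* in every WT library. *Eif2s1* (chromosome 12, 78861819 to 78887010) went from 24.2, 25.3 and 21.7 FPKM to 97.2, 90.8 and 95.8 FPKM, 4.54-fold (interval 3.62 to 5.71, adjusted p = 3.8e-11, limma). *Eif3a* (chromosome 19, 60761117 to 60790658) went from 79.6, 81.4 and 81.7 FPKM to 216, 189 and 202 FPKM, 2.88-fold (interval 2.39 to 3.47, adjusted p = 4.8e-10, limma). Within each genotype, no library at 12 h overlapped a naive library for any of the 8 genes that rose.

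The 3 repressors followed 3 different courses. *Pdcd4* (chromosome 19, 53892231 to 53929860), the eIF4A inhibitor, was at 124, 131 and 134 FPKM in naive WT cells, at 24.9, 17.1 and 22.1 FPKM at 12 h, and at 102, 116 and 104 FPKM in CTLs. It was thus low only in the 12 h libraries, 5.20-fold below naive (log2 difference -2.38 ± 0.18 SE, adjusted p = 7.3e-11, limma), and the CTL level was 4.52-fold above 12 h (interval 3.49 to 5.86, adjusted p = 4.9e-10, limma). *Eif4ebp1* (chromosome 8, 27260329 to 27276674) rose at both steps. It was at 4.46, 6.21 and 6.13 FPKM in naive WT cells, 27.7, 29.7 and 28.2 FPKM at 12 h, and 89.3, 73.9 and 76.9 FPKM in CTLs. Its folds were 5.53 (interval 4.34 to 7.04, adjusted p = 1.3e-11) and 2.52 (interval 1.98 to 3.20, adjusted p = 3.4e-07) by limma. *Eif4ebp2* (chromosome 10, 61428491 to 61452661) stayed within 79.3 to 114 FPKM in the 9 WT libraries, and its log2 difference at 12 h was -0.11 (interval -0.29 to 0.07, adjusted p = 0.27, limma). Without scaling between libraries that difference was -0.32 (adjusted p = 6.8e-04), where the median of all genes was -0.18. *Eif4ebp2* was also called lower at 12 h without scaling in lin28Tg (-0.40) and let-7Tg cells (-0.34).

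From 12 h to day 5, the 7 genes other than *Eif4ebp1*, *Eif4ebp2* and *Pdcd4* fell in every genotype while *Eif4ebp1* and *Pdcd4* rose. Of all tested genes, 33.6% were higher and 33.7% lower in CTLs than at 12 h in WT, 33.5% and 32.7% in lin28Tg, and 33.4% and 33.7% in let-7Tg cells. In WT cells *Eif4e* fell 2.92-fold, *Eif5a* 2.87-fold, *Eif4g1* 2.46-fold, *Eif4a1* 2.28-fold, *Eif2s1* 2.19-fold, *Eif3a* 1.73-fold and *Eif4e2* 1.69-fold (adjusted p from 4.1e-09 to 1.3e-05, limma). In lin28Tg cells the falls were smaller in these fits for each of the 7 genes, at 2.14-fold for *Eif4e*, 1.62-fold for *Eif2s1* and 1.37-fold for *Eif3a*, but none of the 7 tests of the difference between the falls in lin28Tg and WT cells passed the threshold (adjusted p from 0.285 to 0.709, limma). *Eif4ebp2* was called in let-7Tg cells alone, where it was 1.23-fold higher in CTLs than at 12 h (interval 1.08 to 1.39, adjusted p = 0.0046, limma). Without let-7Tg 12 h replicate 2 that call was lost (log2 difference 0.18, adjusted p = 0.083).

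**Figure D2:**
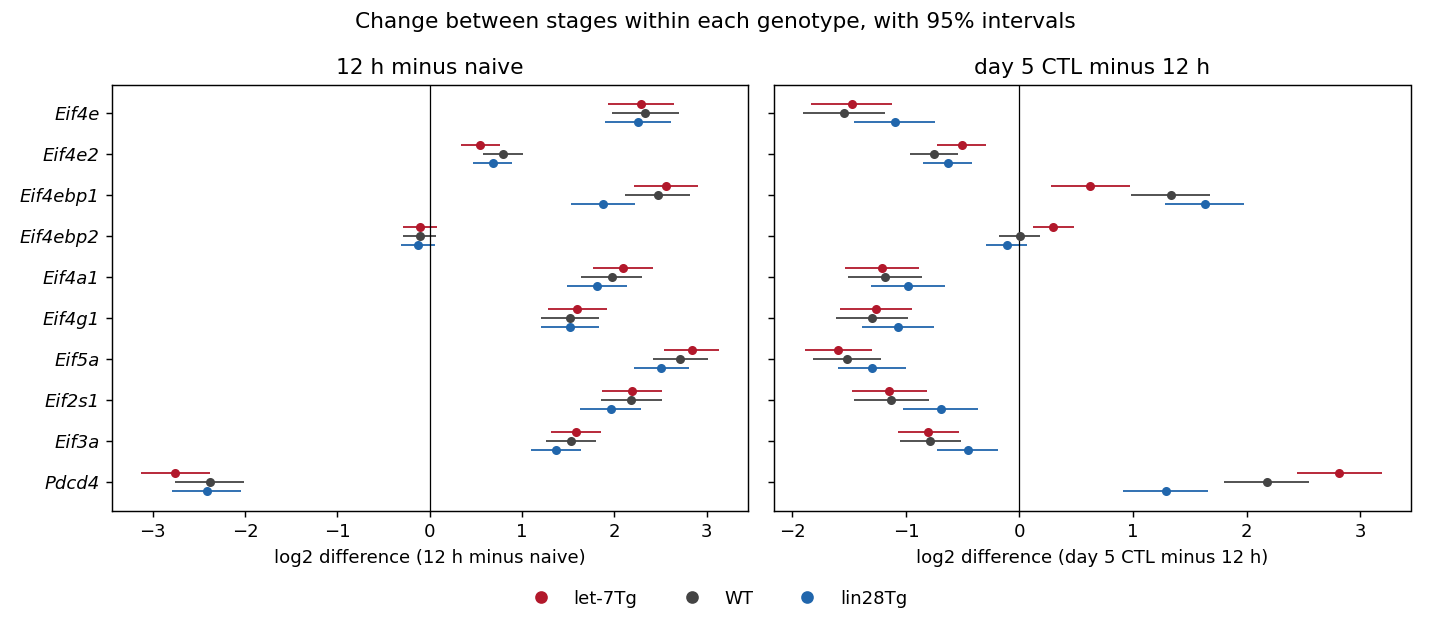
Log2 difference of the 10 genes between stages within each genotype, 12 h minus naive at left and day 5 CTL minus 12 h at right, with 95% intervals from the fit of 27 libraries. In WT cells *Eif5a* stands at 2.71 and *Pdcd4* at -2.38 in the left panel, and *Pdcd4* at 2.18 and *Eif4e* at -1.55 in the right panel.

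Several of the genes that rose together at 12 h carry the E-box CACGTG near their start, the site bound by Myc and other basic helix-loop-helix factors, so these promoters are shown. Windows of 250 bases before to 50 after a start site came from RefSeq (GRCm38.p6), and 9 of the 10 genes had at least 1. *Eif4ebp1* is not in that table. The motif reads alike on both strands and was found in 5 of the 9 genes, in 11.4% of the 10685 tested genes with a window, and in 12 of the 62 other translation genes with a window (19.4%). The 9 genes have 18 windows in all, and a gene with more windows has more chances to hold the motif. *Eif4e2*, *Eif4ebp2*, *Eif2s1* and *Pdcd4* did not have it in their windows, of which *Eif4e2* and *Eif2s1* rose at 12 h. A match describes letters only. The 250 bases before the start follow for 4 genes, 5′ to 3′ on the strand of the gene, with the motif in capitals.
Eif4e, window 2 (chr3:138527018-138527267, plus strand): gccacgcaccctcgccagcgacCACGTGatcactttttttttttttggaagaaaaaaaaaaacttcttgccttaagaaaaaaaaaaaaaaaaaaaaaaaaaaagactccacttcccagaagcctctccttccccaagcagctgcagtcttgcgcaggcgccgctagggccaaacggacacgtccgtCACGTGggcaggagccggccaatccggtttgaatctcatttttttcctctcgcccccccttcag
Eif4a1 (chr11:69672424-69672673, minus strand): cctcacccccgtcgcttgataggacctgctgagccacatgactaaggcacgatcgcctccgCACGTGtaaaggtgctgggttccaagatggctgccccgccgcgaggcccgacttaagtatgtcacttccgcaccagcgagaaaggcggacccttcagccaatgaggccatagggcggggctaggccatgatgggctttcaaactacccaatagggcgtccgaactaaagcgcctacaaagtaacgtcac
Eif4g1 (chr16:20672477-20672726, plus strand): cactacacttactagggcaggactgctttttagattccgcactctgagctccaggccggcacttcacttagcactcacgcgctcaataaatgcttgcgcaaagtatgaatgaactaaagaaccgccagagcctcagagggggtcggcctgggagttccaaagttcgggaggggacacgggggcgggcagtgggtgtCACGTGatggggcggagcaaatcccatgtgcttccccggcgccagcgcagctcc
Eif5a, window 2 (chr11:69921387-69921636, minus strand): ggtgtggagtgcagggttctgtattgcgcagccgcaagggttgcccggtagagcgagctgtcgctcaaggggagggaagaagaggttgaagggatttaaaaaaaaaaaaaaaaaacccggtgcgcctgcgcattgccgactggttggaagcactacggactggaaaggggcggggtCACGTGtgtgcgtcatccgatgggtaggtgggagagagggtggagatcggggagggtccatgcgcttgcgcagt

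In *Eif4e* the motif begins at -228 and -64 from the start of this window, in *Eif4a1* at -189, in *Eif4g1* at -54 and again at 16 after the start, and in *Eif5a* at -74. Window 3 of *Eif5a* overlaps window 2 and holds the same copy of the motif, and window 6 holds another copy. In *Eif3a* it begins at 23 after the start. *Eif4e* has another start whose window does not hold the motif.

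Most of the remaining genes of the pathway also rose at 12 h and fell by day 5. Lists of 82 other genes of initiation, elongation and mTORC1 signaling were counted, of which 81 were tested across stages. In WT cells 65 were higher and 8 lower at 12 h, and 9 were higher and 60 lower in CTLs than at 12 h, with median log2 differences of 0.89 and -0.77. In lin28Tg cells 66 rose and 10 fell at 12 h, then 11 rose and 53 fell, and in let-7Tg cells 64 rose and 10 fell, then 8 rose and 62 fell. All 9 other genes of eIF2 and its exchange factor eIF2B rose at 12 h in WT cells, as did all 11 of the eIF1, eIF5, eIF5B and eIF6 list and 11 of 13 other eIF3 genes. The list of repressors was mixed, with 4 of 9 genes higher and 2 lower. In the mTORC1 and MNK list 8 of 13 rose and 3 fell.

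**Figure D3:**
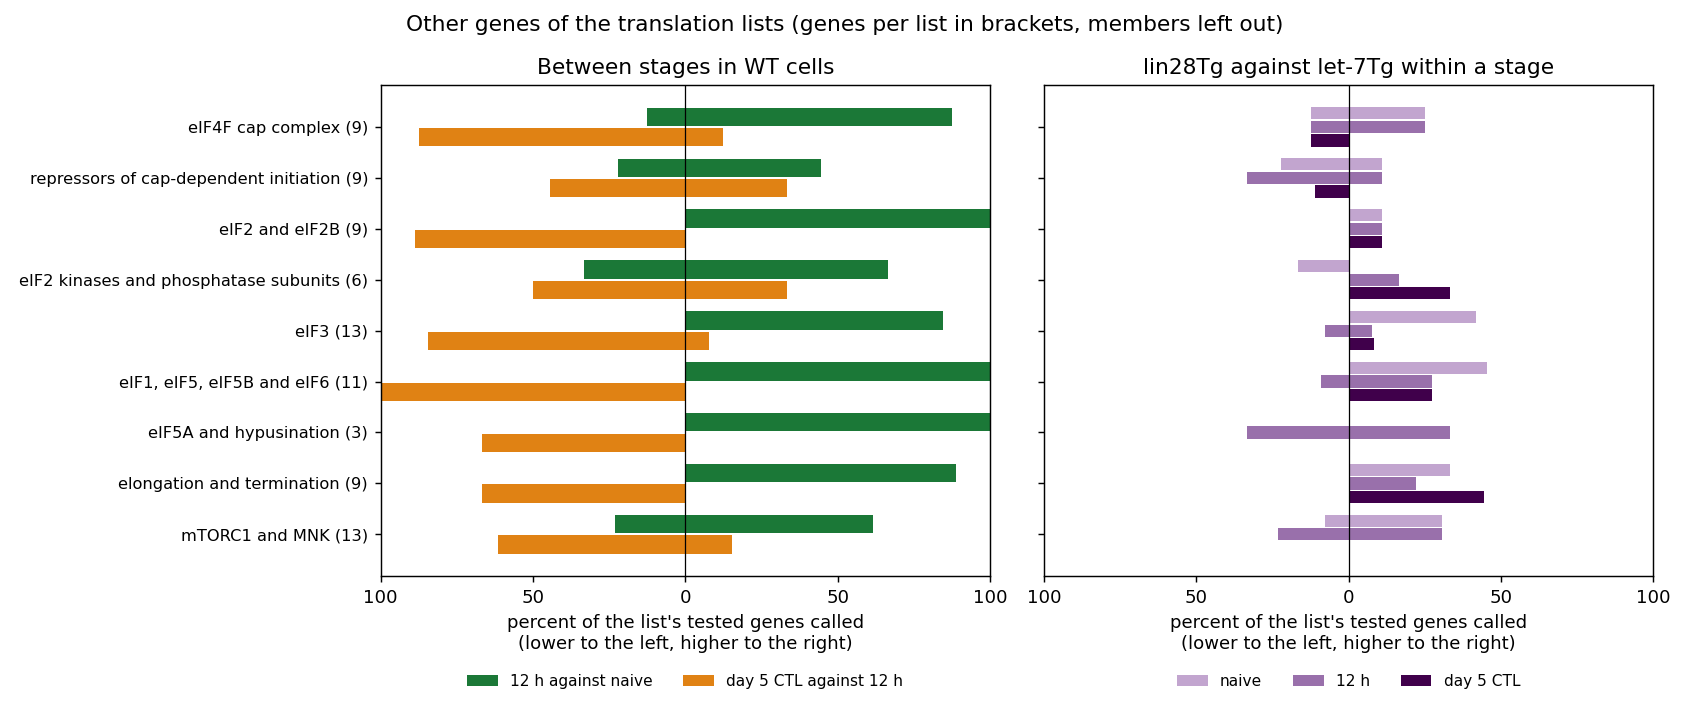
Percent of the tested genes of each translation list that were called higher (right of 0) or lower (left of 0), with the 10 genes left out and the number of genes per list in brackets. At left, WT cells between stages, where 65 of 81 genes rose at 12 h and 60 fell by day 5. At right, lin28Tg against let-7Tg within a stage, where 21, 16 and 11 genes were higher in naive cells, at 12 h and in CTLs.

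The balance of the mRNAs of the repressors and their partners was computed within each library. The sum of *Eif4ebp1* and *Eif4ebp2* was 4.62 ± 0.247 times *Eif4e* in naive WT cells, 1.06 ± 0.0125 times at 12 h and 4.48 ± 1.29 times in CTLs. The CTL value spread from 3.17 to 5.74 over the 3 WT libraries. The makeup of that sum changed as well, since *Eif4ebp1* was 5.04% ± 0.652 of it in naive WT cells, 25.4% ± 1.69 at 12 h and 46.3% ± 3.23 in CTLs. In let-7Tg cells the share was 4.83% ± 0.225, 26.3% ± 2.05 and 31.0% ± 1.93, and in lin28Tg cells 7.72% ± 2.90, 25.1% ± 0.541 and 53.1% ± 2.39. The level of *Pdcd4* mRNA was 21.5% ± 0.620 of that of *Eif4a1* in naive WT cells, 1.05% ± 0.170 at 12 h and 11.1% ± 2.57 in CTLs. These are ratios of mRNA levels whose size depends on the gene lengths used, and they say nothing of protein or of its phosphorylation.

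**Figure D4:**
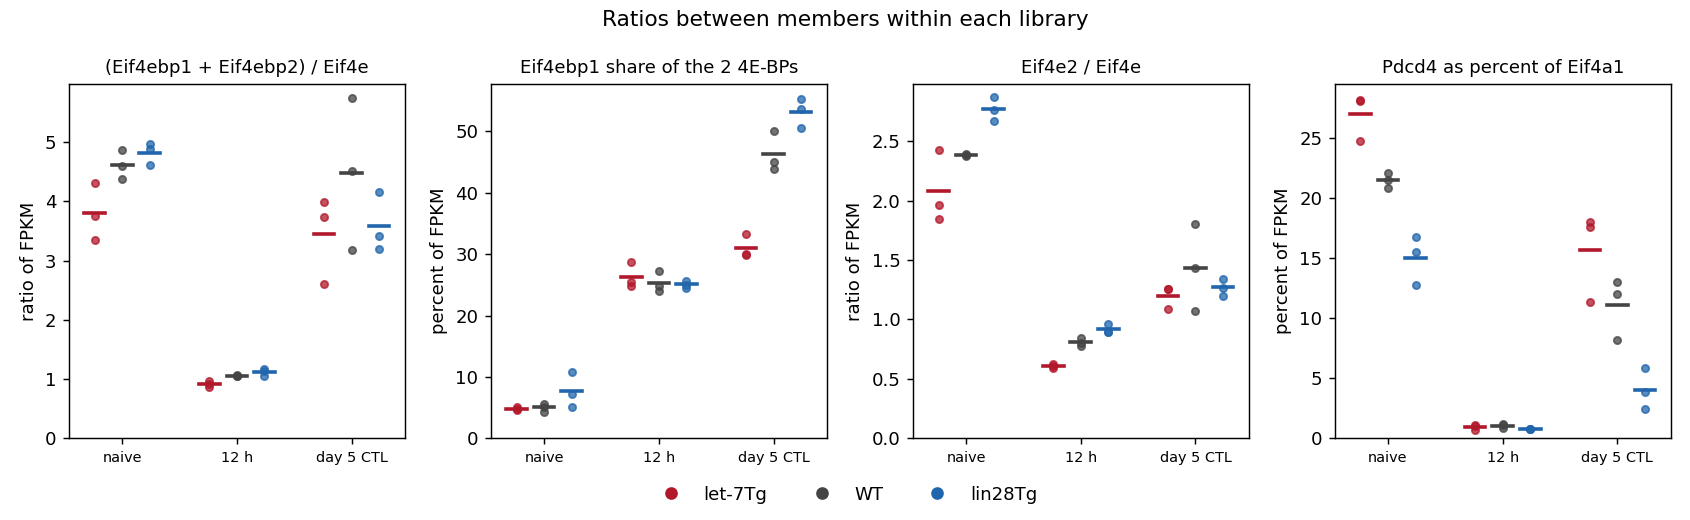
Ratios of FPKM within a library, by stage and genotype, with points for the 3 libraries and a bar at their mean. The panels show 4E-BP mRNA over *Eif4e*, the percent of it that is *Eif4ebp1*, *Eif4e2* over *Eif4e*, and *Pdcd4* as a percent of *Eif4a1*. The ratio of 4E-BP mRNA to *Eif4e* drops from 4.62 to 1.06 in WT cells at 12 h, and the share of *Eif4ebp1* in the 4E-BP sum reaches 53.1% in lin28Tg and 31.0% in let-7Tg CTLs.

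The second question was whether these genes differ between cells with less and with more let-7. The family acts through bases 2 to 8 of the mature strand, the seed, and these are shown in capitals for the transgenic member and 2 relatives (RefSeq, GRCm38.p6).
mmu-let-7g-5p (chr9:106178846-106178867, plus strand): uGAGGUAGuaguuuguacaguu
mmu-let-7a-5p (chr13:48538239-48538260, minus strand): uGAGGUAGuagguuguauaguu
mmu-miR-98-5p (chrX:151913229-151913250, plus strand): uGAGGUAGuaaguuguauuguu

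All 9 family members in that table share this seed. The letters that pair with it, CTACCTC, or TACCTCA with the A opposite base 1, were looked for on the sense strand of the longest annotated 3′ UTR of each gene. None of the 10 genes, whose 3′ UTRs span 453 to 5306 bases, held a match. Of the tested genes with a 3′ UTR, 16.9% (2148 of 12706) held at least 1, as did 12 of the 82 other translation genes (14.6%), among them *Mtor*, *Rheb*, *Tsc1*, *Deptor*, *Gigyf1*, *Eef2k* and *Eif6*. *Hmga2*, a known let-7 target, held 7 matches. The absence of these letters from this window says nothing of other pairing or of indirect routes.

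In naive cells *Eif4ebp1*, *Eif4ebp2*, *Eif4a1* and *Eif2s1* were higher in lin28Tg than in let-7Tg cells and *Pdcd4* was lower, of the 8 genes tested there. These are 4 higher and 1 lower of 8 genes, where 23% of all 13277 tested genes were higher and 21.2% lower. With so few genes, their counts were not tested against these shares. *Eif4ebp1* showed the largest difference, at 6.27, 13.6 and 9.41 FPKM in lin28Tg and 4.27, 3.99 and 4.27 FPKM in let-7Tg cells (2.09-fold, interval 1.45 to 3.01, adjusted p = 0.0053, limma). The lin28Tg libraries spread widely and none overlapped the let-7Tg libraries, but this gene had as few as 55 reads in a library. *Eif4ebp2* was at 117, 112 and 120 in lin28Tg, at 98.2, 104 and 114 in WT and at 88.2, 74.7 and 84.5 FPKM in let-7Tg cells (1.41-fold between the transgenic lines, interval 1.25 to 1.58, adjusted p = 9.0e-04, limma). *Eif4a1* was 1.32-fold (interval 1.19 to 1.47, adjusted p = 0.0015) and *Eif2s1* 1.25-fold higher (interval 1.11 to 1.39, adjusted p = 0.0063) by limma. Both calls were lost when all 27 libraries shared 1 fit (adjusted p = 0.057 and 0.14).

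*Pdcd4* went the other way in naive cells, with 111, 93.1 and 117 in lin28Tg, with 124, 131 and 134 in WT and with 154, 151 and 131 FPKM in let-7Tg cells. The lin28Tg libraries lay below those of both other genotypes. The log2 difference was -0.45 ± 0.09 SE against let-7Tg (adjusted p = 0.0045) and -0.34 ± 0.09 against WT (adjusted p = 0.022, limma). The call against WT was lost without WT replicate 2 or 3 or lin28Tg replicate 2 (adjusted p up to 0.077) and when all 27 libraries shared 1 fit (adjusted p = 0.13).

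Against WT, few of the 8 genes passed the test in naive cells. *Pdcd4* was the 1 gene called in lin28Tg cells, where 19% of all genes were higher and 15.8% lower. *Eif4ebp2* was the 1 gene called in let-7Tg cells (-0.40 ± 0.08, adjusted p = 0.046, limma), where 0.301% of all genes were higher and 0.633% lower. The *Eif4ebp2* call was lost in 13 of 18 alternative fits, with adjusted p up to 0.16. *Eif4ebp1*, *Eif4a1* and *Eif2s1* had log2 differences of 0.64, 0.19 and 0.19 in lin28Tg against WT cells (adjusted p = 0.058, 0.059 and 0.072, limma). The *Eif4ebp1* difference was 0.91 without lin28Tg replicate 1, where it was called (adjusted p = 0.0076), and 0.39 without lin28Tg replicate 2 (adjusted p = 0.17). *Eif4e*, *Eif4g1* and *Eif3a* differed by at most 0.19 on the log2 scale between genotypes in naive cells and were not called. For *Eif4g1* in lin28Tg against let-7Tg cells the 95% interval was -0.09 to 0.17, and for *Eif3a* -0.03 to 0.29.

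The values of *Eif4e2* and *Eif5a* in naive cells are given as a description, since these genes were selected on them. *Eif4e2* was at 73.9, 74.0 and 69.3 in lin28Tg, at 56.1, 56.7 and 58.5 in WT and at 48.3, 43.4 and 49.9 FPKM in let-7Tg cells. *Eif5a* was at 546, 597 and 549.7 in lin28Tg, at 462, 454 and 431 in WT and at 373, 406 and 389 FPKM in let-7Tg cells. For both genes the 3 genotypes did not overlap, and WT lay between the transgenic lines.

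At 12 h the order of *Eif4e2* was the same, and there it could be tested. It was at 98.4, 92.9 and 96.7 in lin28Tg, at 84.5, 87.6 and 85.0 in WT and at 63.6, 54.9 and 58.1 FPKM in let-7Tg cells. *Eif4e2* was 1.64-fold higher in lin28Tg than in let-7Tg cells (interval 1.46 to 1.85, adjusted p = 2.3e-04, limma), a call made in all 18 alternative fits. In let-7Tg against WT cells it was lower by a log2 difference of -0.57 ± 0.08 (adjusted p = 0.015, limma), a call lost without WT replicate 1 or 3 and with the 6 compared libraries alone (adjusted p up to 0.071). Lin28Tg against WT differed by 0.15 (interval -0.03 to 0.32) and was not called.

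Both 4E-BP genes were also lowest in let-7Tg cells at 12 h. *Eif4ebp2* was at 90.6, 87.7 and 85.7 in lin28Tg, at 87.4, 79.3 and 85.7 in WT and at 69.0, 60.9 and 65.2 FPKM in let-7Tg cells. It was 1.36-fold higher in lin28Tg than in let-7Tg (interval 1.20 to 1.54, adjusted p = 0.0036, limma) in all 18 alternative fits, while the difference from WT (-0.40 ± 0.08, adjusted p = 0.041) was called in 8 of them. *Eif4ebp1* was at 29.5, 30.2 and 28.5 in lin28Tg, at 27.7, 29.7 and 28.2 in WT and at 23.7, 20.0 and 26.2 FPKM in let-7Tg cells. It was 1.27-fold higher in lin28Tg than in let-7Tg cells (interval 1.07 to 1.51, adjusted p = 0.041, limma), a call made in 7 of 18 alternative fits.

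The counts at 12 h were 3 genes higher and 0 lower of 10 in lin28Tg against let-7Tg, where 16.3% of all 12239 tested genes were higher and 14.5% lower. In let-7Tg against WT 2 genes were lower, where 1.36% of all genes were higher and 1.87% lower. In lin28Tg against WT limma called 0 genes, where 6.1% of all genes were higher and 2.39% lower. At an unadjusted p under 0.05 the count was also 0 of 10, where 2970 of all 12239 genes passed. *Pdcd4* and the 6 factors *Eif4e*, *Eif4a1*, *Eif4g1*, *Eif5a*, *Eif2s1* and *Eif3a* were not called at 12 h in any genotype comparison. For the 6 factors the log2 differences lay between -0.17 and 0.17, and the intervals reached at most 0.40 from 0.

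**Figure D5:**
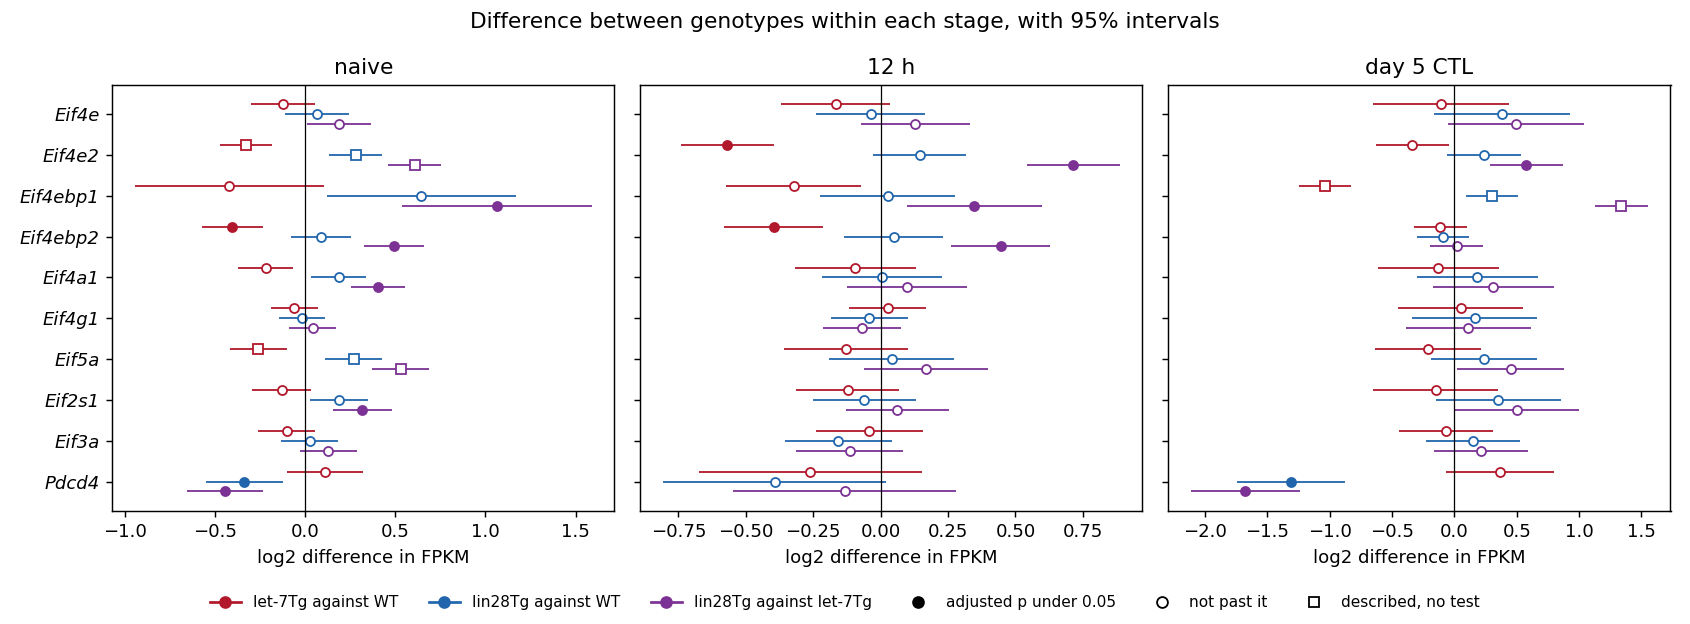
Log2 differences between genotypes within each stage with 95% intervals, on a scale of its own for each stage and with a colour for each pair of genotypes. Filled points passed the threshold, open points did not, and squares are values given with no test. *Eif4e2* is higher in lin28Tg than in let-7Tg cells at 12 h (0.71) and in CTLs (0.58), and *Pdcd4* lower in CTLs (-1.68).

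In day 5 CTLs *Pdcd4* showed the largest tested difference. It was at 55.5, 28.4 and 44.4 in lin28Tg, at 102, 116 and 104 in WT and at 138, 155 and 138 FPKM in let-7Tg CTLs, and the genotypes did not overlap. *Pdcd4* was 3.20-fold lower in lin28Tg than in let-7Tg CTLs (log2 difference -1.68 ± 0.19, adjusted p = 6.9e-04, limma), a call made in all 19 alternative fits, and 2.48-fold lower than in WT (-1.31 ± 0.19, adjusted p = 0.010). With the 3 libraries numbered 3 left out the difference from WT was -1.37 (adjusted p = 0.073). Let-7Tg CTLs lay above WT by 0.37 (interval -0.07 to 0.80) and were not called. The NK markers *Eomes*, which CD8 T cells also make, *Klrb1c* and *Ncr1* had a sum of 138 to 299.6 FPKM in lin28Tg, 67.3 to 94.0 in WT and 18.1 to 47.0 in let-7Tg CTLs. Nearly all of this sum was *Eomes* and *Klrb1c*, since *Ncr1*, the defining NK receptor of the list, was at 0 in the WT libraries, at most 0.0305 FPKM in lin28Tg and at most 0.0896 FPKM in let-7Tg CTLs.

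*Eif4ebp1* had the lowest CTL level in let-7Tg, which is again a description of the values it was selected on. It was at 44.1, 37.4 and 39.0 FPKM in let-7Tg, 89.3, 73.9 and 76.9 FPKM in WT and 99.5, 91.8 and 93.0 FPKM in lin28Tg CTLs. *Eif4ebp2*, by contrast, was at 86.0, 74.6 and 91.1 in lin28Tg, at 89.6, 90.5 and 98.3 in WT and at 88.4, 87.9 and 90.8 FPKM in let-7Tg CTLs. The genotypes overlapped, with an interval of -0.19 to 0.23 between the transgenic lines.

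*Eif4e2* was higher in lin28Tg than in let-7Tg CTLs, at 59.8, 62.6 and 68.3 FPKM against 41.8, 42.1 and 54.4 FPKM in let-7Tg and 56.2, 52.1 and 59.4 FPKM in WT. The fold over let-7Tg was 1.49 (interval 1.22 to 1.83, adjusted p = 0.013, limma). It missed the threshold without lin28Tg replicate 3 or without let-7Tg replicate 1 or 2 (adjusted p up to 0.058). Lin28Tg CTLs lay above WT by 0.24 on the log2 scale and were not called (interval -0.05 to 0.53, adjusted p = 0.36). Let-7Tg replicate 3 lay within the WT range and the other 2 below it, and the difference of let-7Tg from WT was not called (-0.34, interval -0.63 to -0.04, adjusted p = 0.31).

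For 6 of the factors the WT and let-7Tg CTL libraries numbered 3 stood apart. *Eif4e* was at 31.1, 36.4 and 55.2 in WT, at 33.2, 33.6 and 49.9 in let-7Tg and at 44.5, 52.2 and 54.0 FPKM in lin28Tg CTLs. *Eif5a* was at 903, 897 and 1142 in WT, at 728, 786 and 1160.0 in let-7Tg and at 1020.1, 1145 and 1158 FPKM in lin28Tg CTLs. In WT and let-7Tg CTLs replicate 3 was the highest for these genes and for *Eif4a1*, *Eif4g1*, *Eif2s1* and *Eif3a*, while lin28Tg replicate 1 was the lowest of its group for each of the 6. The same-numbered CTL libraries deviated together across genes, so a fit with the replicate number as a block was also made.

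Without the block, lin28Tg against let-7Tg CTLs gave 1 gene higher and 1 lower of 9, where 10.8% of all 13030 tested genes were higher and 10.7% lower. With the block, 4 were higher and 1 lower, the added genes being *Eif4e* (log2 difference 0.49, adjusted p from 0.18 to 0.019), *Eif5a* (0.45, from 0.12 to 0.017) and *Eif2s1* (0.50, from 0.14 to 0.014). With the libraries numbered 3 left out, 5 were higher and 1 lower, with no share of all genes given for this fit. This fit was chosen after the data had been seen. Number 3 was the highest for the genes it added in WT and let-7Tg CTLs, so calls gained without it are a description only. In it *Eif4e*, *Eif5a* and *Eif2s1* passed at 0.64, 0.63 and 0.66 (adjusted p = 0.020, 0.0091 and 0.019). *Eif4a1* passed at 0.46 (adjusted p = 0.043, against 0.34 over all libraries and 0.063 with the block). The block raised the calls over all genes from 2812 to 4732. *Eif4g1* and *Eif3a* were called in none of these 3 fits. In lin28Tg against WT CTLs *Pdcd4* was the 1 gene called, where 2.03% of all genes were higher and 2.31% lower. In let-7Tg against WT 0 of 9 were called by limma, where 0.576% of all genes were higher and 0.353% lower. At an unadjusted p under 0.05 it was 1 of 9, where 1639 of all 13030 genes passed. The block changed neither count of calls, while calls over all genes rose from 566 to 1754 and from 121 to 530.

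Whether a genotype difference itself changed between stages was tested as a contrast of contrasts over all 27 libraries. For *Pdcd4* the difference of lin28Tg from let-7Tg was greater in CTLs than at 12 h by -1.53 ± 0.25 on the log2 scale (adjusted p = 1.3e-04) and greater than in naive cells by -1.19 ± 0.25 (adjusted p = 0.0013). Of all tested genes, 20.9% and 27.5% were called in these contrasts. Against WT the changes were -0.89 (adjusted p = 0.037) and -0.92 (adjusted p = 0.015, limma), where 6.42% and 16.3% of genes were called. The first of these was lost in 10 of 20 alternative fits. The return of *Pdcd4* between 12 h and day 5 was thus 7.04-fold in let-7Tg, 4.52-fold in WT and 2.44-fold in lin28Tg cells.

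For *Eif4ebp2* the difference between the transgenic lines disappeared from the calls by day 5, and this change passed its own test, at -0.41 ± 0.12 against 12 h (adjusted p = 0.020) and -0.43 ± 0.12 against naive cells (adjusted p = 0.011, limma). This contrast with 12 h missed the threshold without let-7Tg 12 h replicate 2 or lin28Tg CTL replicate 2 (adjusted p up to 0.064). No tested gene of the 10 was called from naive cells to 12 h, where 7.85% of all genes were called in lin28Tg against WT, 0.0969% in let-7Tg against WT and 13.4% in lin28Tg against let-7Tg. None was called in let-7Tg against WT from 12 h or from naive cells to CTLs, where 1.35% and 0.47% of genes were called. The differences of *Eif4e2* from 12 h to CTLs had intervals of -0.42 to 0.18 between the transgenic lines.

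Among the other translation genes, lin28Tg against let-7Tg gave 21 higher and 5 lower of 80 in naive cells, 16 and 10 of 81 at 12 h, and 11 and 2 of 80 in CTLs (29 and 6 with the replicate block). Of all tested genes, 23% were higher and 21.2% lower in naive cells, 16.3% and 14.5% at 12 h, and 10.8% and 10.7% in CTLs without the block. With the block, 4732 of all 13030 genes were called in CTLs in either direction, against 2812 without it. In naive lin28Tg against let-7Tg cells the MNK kinase gene *Mknk2*, whose product phosphorylates eIF4E, was at 146 against 106 FPKM (adjusted p = 6.4e-04, limma), *Eif1a* at 27.4 against 18.4 FPKM and *Eif3b* at 98.9 against 76.9 FPKM. *Gigyf1*, a partner of 4EHP in repression, was lower at 27.7 against 45.2 FPKM (adjusted p = 5.8e-04), as were *Tsc1*, a brake on mTORC1, at 13.1 against 18.2 FPKM and *Eif4a2*, the other eIF4A helicase, at 486 against 639.8 FPKM. *Eif4a2* was thus lower where *Eif4a1* was higher. *Deptor*, an inhibitor of mTOR, was higher but at only 1.10 against 0.140 FPKM.

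At 12 h *Mtor* itself was at 50.5 in lin28Tg, at 40.6 in WT and at 37.0 FPKM in let-7Tg cells (adjusted p = 0.020 against WT and 8.5e-04 against let-7Tg, limma). *Mknk2* was 1.63-fold, *Pabpc4*, a poly(A)-binding protein gene, 1.34-fold, and the eIF2 kinase gene *Eif2ak2* 2.33-fold higher in lin28Tg than in let-7Tg cells. *Rheb*, the activator of mTORC1, was lower at 28.1 against 37.8 FPKM, and *Eif4a2* and *Eif5a2* were lower too. *Eif3j2* was at 6.92 FPKM in let-7Tg against 0.533 FPKM in WT cells (6.97-fold, adjusted p = 2.6e-04), but it has a near-identical copy, *Eif3j1*, and the split of reads between them is uncertain. In lin28Tg against WT at 12 h the 4 genes called were *Mtor* and *Cyfip1* higher and *Eif4a2* and *Tsc1* lower. This count fell to 0 without WT replicate 1 or 3 or lin28Tg replicate 2 or 3, and to 1 without WT replicate 2 or lin28Tg replicate 1.

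In naive lin28Tg against WT cells 5 of the 80 genes were higher and 5 lower, where 19% and 15.8% of all genes were, and without scaling between libraries 15 were higher and 2 lower. *Cyfip1*, whose product binds eIF4E, was at 14.7 against 3.84 FPKM (3.27-fold, adjusted p = 0.0029, limma). In CTLs of lin28Tg against let-7Tg, *Eif2s2*, the beta subunit of eIF2, was at 136 against 80.5 FPKM (1.83-fold, adjusted p = 0.0046), *Eef2k*, the kinase that inhibits elongation factor eEF2, at 25.0 against 14.8 FPKM, *Eef1g* at 1296 against 1095 FPKM and *Eif3i* at 181 against 155 FPKM. *Eif4e3*, a further cap-binding relative of eIF4E, was lower at 16.9 against 26.7 FPKM (adjusted p = 0.0084), and so was *Gigyf1* at 10.2 against 17.3 FPKM. Limma called 0 other translation genes in lin28Tg against WT CTLs (9 of 80 at an unadjusted p under 0.05, 8 with the block) and 0 in let-7Tg against WT CTLs (11 and 2). Of all 13030 tested genes, 2549 and 1639 had an unadjusted p under 0.05 in these comparisons. The block called 1754 and 530 of all genes, against 566 and 121 without it.

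The 10 genes were also compared with one another after the mean of each stage had been subtracted, over the 27 libraries. These correlations are a description, and their points share stages, genotypes and libraries. *Eif4a1* and *Eif2s1* were the most alike (r = 0.953), followed by *Eif4a1* with *Eif5a* (0.944) and *Eif4e* with *Eif2s1* (0.942). *Pdcd4* had a negative r with each of the other 9 genes, from -0.67 with *Eif4ebp1* to -0.03 with *Eif4ebp2*. *Eif4ebp1* and *Eif4ebp2* had an r of 0.512, and *Eif4e2* was closer to *Eif4ebp2* (0.810) than to *Eif4e* (0.666).

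Among 9051 genes with a mean of at least 5 FPKM, those most like *Eif4ebp1* by the same measure were *Ybx1* (r = 0.906), *Ybx3* (0.895) and *Paox* (0.894). For *Eif4e2* they included *Lrrc59* (0.964) and *Ppp4c* (0.956), and for *Eif5a* they were *Cct3* (0.974), *Ranbp1* (0.966) and *Timm23* (0.963). *Pdcd4* was most like *Ms4a6b* (0.928), *Aff3* (0.916) and *Tcf7* (0.907).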

How the data were processed

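RNA of 27 libraries was sequenced by Novogene. Per the labels and the study's methods, the authors aligned paired-end reads with TopHat2 2.0.9 and Bowtie2 2.0.6 to GRCm38 and counted them with HTSeq 0.6.1, and they deposited FPKM per gene and library in 1 table for each stage. The annotation release is not given in the sources used here. Columns with the authors' group mean read counts, fold changes, p-values, heatmap clusters and ranks were not used. Samples were grouped by their labels.

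Genes with at least 10 reads in 3 or more libraries and 15 in all were tested by limma (version 3.58.1, run under R 4.3.3). Values were scaled between libraries by trimmed means and taken as log2(FPKM + 0.5), with a trended prior and Benjamini-Hochberg adjustment over all tested genes at 0.05. A fold change is on this scale and understates changes of low genes. Genotypes were compared within a stage over its 9 libraries, and stages and changes of differences over all 27. Whole reads were recovered from the FPKM for 25144 of 25144 genes (100%, tolerance 0.02 reads), and limma's voom on them was an alternative. The scripts were tested on simulated data.

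The 10 genes, the lists and the tests were chosen with earlier results of these data known. Named pathway genes were, per genotype comparison, up to 4 called higher and 4 called lower with the smallest adjusted p. The most alike genes were those with the highest Pearson r after stage means were subtracted, with a mean of at least 5 FPKM. A gene among those for *Eif4e2* is not reported here.

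In CTLs all 9 pairs of libraries with the same replicate number deviated together from their group means (r from 0.245 to 0.715, against -0.534 to 0.144 for the 18 other pairs), so the numbers were taken to pair CTL libraries. In naive cells and at 12 h 3 of 9 pairs had an r over 0.1, and the numbers were not taken as pairs over the 3 genotypes. At 12 h those 3 were the pairs of WT with let-7Tg libraries (r = 0.240, 0.549 and 0.434). Other WT and let-7Tg pairs there had an r from -0.445 to 0.156. The numbers may thus pair these 2 genotypes at 12 h, which the main tests left out. With the block, let-7Tg against WT at 12 h gave 0 higher and 2 lower of the 10 genes, as without it.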

Additional observations from a re-analysis of the deposited data

Results flagged for a closer look

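*Pdcd4* and *Eif4ebp2* showed genotype differences that themselves changed between stages by limma's test of the difference. For *Pdcd4*, lin28Tg against let-7Tg shifted by -1.53 from 12 h to CTLs and by -1.19 from naive cells to CTLs on the log2 scale, and lin28Tg against WT shifted by -0.89 and -0.92. For *Eif4ebp2*, lin28Tg against let-7Tg shifted by -0.41 from 12 h to CTLs and by -0.43 from naive cells to CTLs, from a difference at the earlier stages to overlapping libraries in CTLs.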

How the results depend on the processing

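Of 1748 values of the 10 genes under alternative settings, 1649 kept their direction and side of the threshold. *Pdcd4* and the 8 genes that rose at 12 h kept both stage calls in every alternative run. The direction of *Eif4ebp2* from 12 h to CTLs in WT cells, which was not called (0.00), turned to -0.00098 with the 6 compared libraries alone, to -0.076 without the CTL libraries numbered 3 (an alternative chosen after seeing the data), and ranged from -0.062 to 0.038 without 1 library, falling below 0 without WT 12 h replicate 2 or WT CTL replicate 3. In let-7Tg cells from naive to 12 h (-0.10, not called) it ranged from -0.16 to 0.0043, the last without let-7Tg 12 h replicate 2. Scaling shifted the median of all genes from naive cells to 12 h from -0.05 to -0.18 in WT cells.

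The counts of other translation genes moved as follows, the cause not being tested. Lin28Tg against WT in naive cells gave 10 calls, 17 without scaling and 5 to 11 without 1 library. At 12 h it gave 4, then 2 without the filter, 2 without scaling, 2 with all 27 libraries in 1 fit, and 0 to 5 without 1 library. In CTLs it gave 0, then 8 with the replicate block, 6 with all 27 libraries and 1 without the libraries numbered 3. Let-7Tg against WT gave 0 in naive cells and 0 to 1 without 1 library. At 12 h it gave 2, then 4 with a pseudocount of 0.1, 1 without the filter, 5 without scaling, 5 with median of ratios scaling, 1 with the 6 compared libraries and 1 to 7 without 1 library. In CTLs it gave 0, then 2 with the block, 2 with all 27 libraries and 0 to 1 without 1 library. Lin28Tg against let-7Tg gave 26 at 12 h, 15 with all 27 libraries and 14 to 24 without 1 library. In CTLs it gave 13, then 8 without the filter, 35 with the block, 23 with all 27 libraries, 21 without the libraries numbered 3 and 4 to 19 without 1 library.

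With the replicate number as a block, calls over all genes went from 4629 to 4800, 124 to 71 and 5870 to 6063 in naive cells and from 1038 to 1075, 396 to 242 and 3775 to 3668 at 12 h (lin28Tg against WT, let-7Tg against WT, lin28Tg against let-7Tg). In CTLs they went from 566 to 1754, 121 to 530 and 2812 to 4732 in the same order. Under the block *Eif4ebp1* was called in naive lin28Tg against WT cells (adjusted p = 0.036), while *Eif4ebp2* in naive let-7Tg against WT (0.062) and *Eif4ebp1* at 12 h in lin28Tg against let-7Tg (0.054) were not. Without scaling *Eif4ebp1*, *Eif4a1* and *Eif2s1* passed in naive lin28Tg against WT cells (adjusted p = 0.048, 0.012 and 0.028). *Eif4ebp1* had as few as 55 reads in a library, which limits its naive values.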
